A study of Mus musculus with 4 samples.

Results

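The 10 genes described here encode members of the Bcl2 family, the proteins that decide whether a cell's mitochondria are opened during apoptosis. They were chosen by gene symbol: Bcl2 and Mcl1, which keep cells alive, Bax and Bak1, the effectors, and the BH3-only genes Bid, Bad, Bcl2l11, Bbc3, Pmaip1 and Bmf. Each symbol matched 1 row of the deposited table, so the members were 10 of 56239 genes, and all 10 were among the 15070 genes with enough counts to be tested. The libraries were RNA-seq of sorted CD4+CD8+ double-positive (DP) thymocytes, the stage at which the T cell receptor alpha chain is rearranged and most cells die, from C57BL/6 mice. There were 2 WT libraries, from mice with CHAF1bfloxp/floxp alleles and no Cre, and 2 KO libraries, from mice with the same alleles and Cd4-cre, a transgene that expresses Cre recombinase under Cd4 control. Both genotypes therefore carried floxed alleles, the Cre transgene was present in KO only, and so deletion and the transgene itself cannot be told apart. The labels give neither the mice's age nor the number of mice behind each library. The comparison asks how DP transcripts differ when Chaf1b, which encodes a subunit of the histone chaperone CAF-1, is deleted.

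In the intrinsic pathway of apoptosis, Bax and Bak1 proteins form pores in the outer mitochondrial membrane and let cytochrome c out. Bcl2 and Mcl1 proteins hold them in check, and BH3-only proteins, named for the single short domain they share with the family, either bind the survival proteins or activate the effectors directly. In the thymus Bcl2l11 (Bim) is known for its part in deleting self-reactive cells, Mcl1 for survival at several stages, and Bcl2 for its low level in DP cells and higher level before and after that stage. Bax, Bbc3 (Puma) and Pmaip1 (Noxa) are known targets of p53.

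Library totals ran from 21068760 to 27369874 counts. Chaf1b was measured at 27.9 and 31.7 CPM (counts scaled to a common library total, with library sizes set by the TMM method) in WT and 12.2 and 14.8 CPM in KO, and passed the test with the sex term described below (log2 fold change -1.15, edgeR adjusted p = 0.0172; 0.267 without it). Reads from exons outside the floxed part can remain. In both genotypes replicate 1 was female and replicate 2 male by Xist and 4 Y-linked genes, so the libraries of a genotype came from different animals, and the replicate number and sex cannot be told apart. All 12 listed DP markers were measured, with a summed level of 17300 to 22440 CPM and Rag1, the recombinase gene, as the most abundant; 1 of them, Cd1d1, fell in KO with the sex term (log2 fold change -0.64, edgeR adjusted p = 0.0371). Listed markers of other cells differed widely in level. Krt5 had 1 to 5 counts, and Ncr1 and Cd34 were at 0, whereas Trdc reached 96.6 CPM and Ighm 471 CPM. Of 10 listed NK and gamma-delta markers 5 were tested. The 10 summed to 95.3 and 113 CPM in WT and 125 and 157 CPM in KO, with Trdc as the most abundant. With the sex term 2 of the 5, Gzma and Tcrg-C2, were higher in KO (edgeR adjusted p = 0.0194 and 0.0365), against 1.01% of all genes. Tcrg-C2 had 9 and 11 counts in WT and 44 and 36 in KO. B cell markers summed to 426 to 494 CPM (Ighm most abundant). Of the 3 tested, 1, Cd79b, rose from 15.7 and 19.6 to 30.7 and 28.8 CPM with the sex term (edgeR adjusted p = 0.0414). Epithelium and stroma markers summed to 150 to 176 CPM, of which Pecam1 alone made up 141 to 167 CPM. The next of that list, Epcam, reached 7.73 CPM, while Cdh5 had 1 to 5 counts and Foxn1 at most 1. Macrophage and granulocyte markers summed to 10.1 to 13.7 CPM (Cd68 most abundant), and dendritic and erythroid markers to at most 2.03 CPM. A list of 8 liver transcripts, Alb the most abundant, summed to 414 and 89.2 CPM in WT and 432 and 9.07 CPM in KO. Of the 8, 6 were lower in KO in both pairs, and Ttr fell with the sex term (log2 fold change -1.57, edgeR adjusted p = 0.0428). Without the term none of Cd1d1, Gzma, Tcrg-C2, Cd79b and Ttr passed (edgeR adjusted p = 0.590 for Ttr and 0.267 for each of the others). KO replicate 1 stood apart, with 3.30% of its counts from mitochondrially encoded genes against 2.03% in KO replicate 2 and 1.33% and 1.45% in WT.

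Taken per length, Mcl1 was the most abundant member and Pmaip1 and Bcl2 the least abundant. Levels between genes are compared in TPM (counts per base of the deposited gene length, scaled to a common total). Mcl1 (chr3:95658788-95663176, GRCm38) stood at 719 and 702 TPM in WT, against 125 and 149 TPM for Bmf, the next. Bax (116 and 121 TPM) came after Bmf, Bbc3 (92.2 and 86.9) and Bak1 (87.9 and 91.2) followed with overlapping ranges, then Bcl2l11 (48.6 and 45.8). Bad (26.9 and 35.5 TPM) and Bid (30.1 and 27.5) also overlapped each other, while Bcl2 (6.98 and 7.06) and Pmaip1 (3.14 and 5.00) stood below them and apart from each other. In KO the order at both ends was kept: Mcl1 at 664 and 658 TPM and Bmf at 143 and 165 TPM came ahead of the rest, and Bcl2 and Pmaip1 remained last. Bak1 stood ahead of Bax there, with 114 and 112 TPM in the KO libraries against 45.1 and 88.9 TPM for Bax, and the KO ranges of Bax, Bbc3 and Bcl2l11 overlapped in turn.

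**Figure D1:**
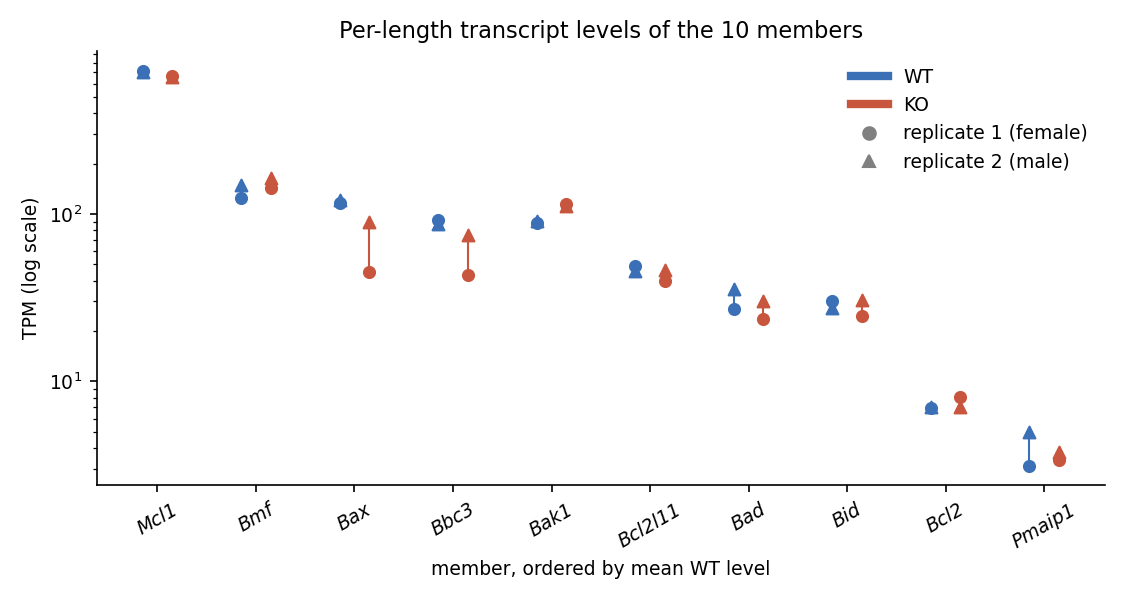
Per-length level (TPM, log axis) of each member in each library, blue for WT and red for KO, circles for replicate 1 (female) and triangles for replicate 2 (male); lines join the libraries of a genotype. Mcl1 lies between 658 and 719 TPM in all 4 libraries, Pmaip1 between 3.14 and 5.00 TPM, and the KO libraries of Bax and Bbc3 lie apart from each other.

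Of the 10 members only Bax passed a test of KO against WT, and it was lower in KO. edgeR's quasi-likelihood test was fitted to all 15070 genes, first for genotype alone and then with a term for the replicate number, below the sex term, with Benjamini-Hochberg adjustment over all genes and a threshold of 0.05. Without the term, edgeR called 0 of the 10 members and 0.00664% of all genes (1 gene), whereas 2 members and 16.8% of all genes had an unadjusted p under the same 0.05 (1 member and 8.14% of genes higher in KO, 1 member and 8.69% of genes lower). With the term it called 1 of 10 members, against 3.21% of all genes (1.01% higher and 2.20% lower in KO). Both KO libraries were above both WT libraries, in CPM, for 3 members (27.9% of all genes) and below both for 2 members (28.4% of all genes), and the other 5 overlapped, so groups that did not overlap were no more frequent than among all genes (5 of 10 against 56.3%). The members' median log2 fold change was 0.01 with the term, against -0.01 for all genes tested. For the 5 members that did not overlap, the fit without the term was repeated with a KO library left out. Without KO replicate 2 the log2 fold changes were -1.17 (Bax), -0.82 (Bbc3), 0.57 (Bak1), 0.28 (Bmf) and 0.41 (Bcl2). Without KO replicate 1 they were -0.37, -0.22, 0.36, 0.31 and 0.06, in the same order. The lone KO library is then assumed to vary as the WT libraries do, so calls from these fits are not counted.

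**Figure D2:**
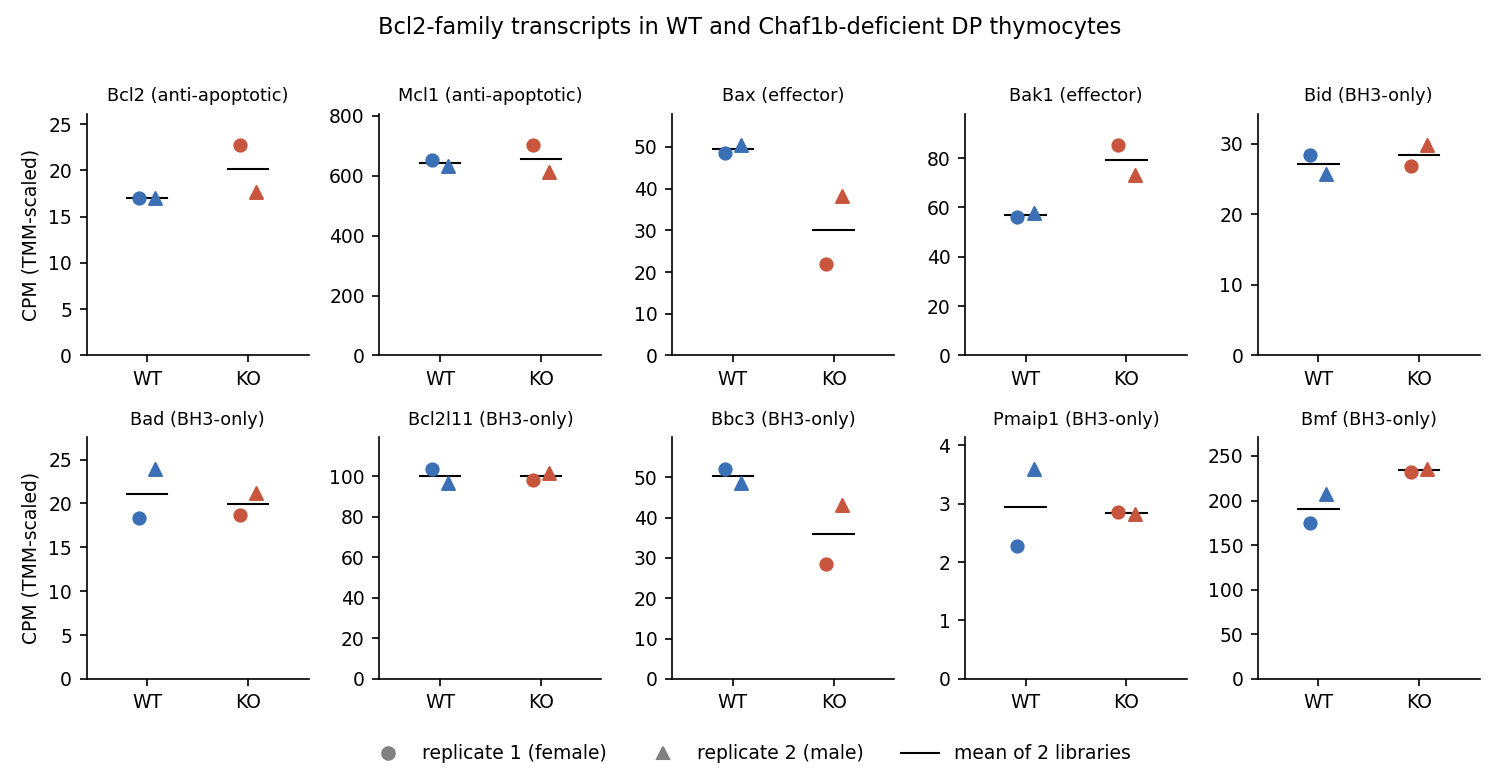
Level of each member (CPM, linear axes from 0, a separate scale per gene) in each library, circles for replicate 1 (female) and triangles for replicate 2 (male), with a line at the mean of the 2 libraries of a genotype. The KO libraries lie below both WT libraries for Bax and Bbc3, above them for Bak1, Bmf and Bcl2, and overlap them for the other 5 members.

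The effectors stood on opposite sides of WT. Bax (ENSMUSG00000003873, chr7:45461697-45466898, minus strand) had 1148 and 1427 counts in WT and 499 and 826 in KO, which is 48.5 and 50.3 CPM against 22.0 and 38.2 CPM (replicates 1 and 2). The WT libraries lay close together, both KO libraries were below them, and KO replicate 1 was the lowest. Mean levels (± SD, n = 2) were 49.4 ± 1.34 CPM for WT against 30.1 ± 11.5 CPM for KO. With the sex term Bax fell by 0.76 ± 0.18 (SE) on the log2 scale, with a 95% interval of -1.16 to -0.37 and an edgeR adjusted p of 0.0448; without it the value was -0.71 ± 0.25 (SE; edgeR adjusted p = 0.270). Within the female pair (KO against WT replicate 1) Bax differed by -1.14 on the log2 scale, and within the male pair by -0.40. Without KO replicate 1, the edgeR fit without a term gave -0.37, and without KO replicate 2 it gave -1.17. The call with the sex term did not hold with DESeq2 (adjusted p = 0.0574), with robust dispersions in edgeR (0.0660) or with library-total scaling in edgeR (0.0708). The share of mitochondrial counts was also highest in KO replicate 1, where Bax was lowest, and its part in the Bax level was not tested. A fit without the rows of mitochondrially encoded and ribosomal protein genes gave -0.76 with the sex term (edgeR adjusted p = 0.0324) and -0.71 without it (edgeR adjusted p = 0.273). Leaving out rows keeps the Bax counts and changes mainly the scaling, so this fit is no test of that part.

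Bak1 (ENSMUSG00000057789, chr17:27019810-27029009, minus strand), the other pore-forming effector, had 56.3 and 57.9 CPM in WT and 85.2 and 73.2 CPM in KO. Both KO libraries were above both WT libraries. Mean levels (± SD, n = 2) were 57.1 ± 1.10 CPM for WT against 79.2 ± 8.48 CPM for KO, and the log2 fold change of 0.47 ± 0.14 (SE, sex term; 95% interval 0.17 to 0.77) did not pass (edgeR adjusted p = 0.0850, and 0.267 without the term). The female pair differed by 0.60 and the male pair by 0.34 (log2). Without KO replicate 2, the edgeR fit without a term gave 0.57, and without KO replicate 1 it gave 0.36. The ratio of Bax to Bak1, per length, was 1.31 and 1.33 in the WT libraries and 0.395 and 0.798 in the KO libraries. Per length, Bax was thus the more abundant effector transcript in both WT libraries and Bak1 in both KO libraries. This order in WT depended on the length term. In CPM the ratio was 0.861 and 0.870 in WT and 0.258 and 0.522 in KO, with Bak1 higher in every library. The sum of Bax and Bak1 was 203 and 212 TPM in WT and 160 and 200 TPM in KO, 1 KO library being close to WT, and in CPM the genotypes overlapped. Of Bak1's 2407 exon bases, 25.5% overlap exons of Ggnbp1 models and were not countable for it. Those models had at most 24 counts in any library. Of Bax's 1576 exon bases, 12.2% overlap Gm45808, which had 0 counts in every library. TPM used the full exon length of both genes.

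Bbc3 (ENSMUSG00000002083, chr7:16308393-16318205, plus strand), a BH3-only gene, had 52.1 and 48.7 CPM in WT and 28.5 and 43.2 CPM in KO. As for Bax, both KO libraries were below WT and KO replicate 1 was the lowest. Mean levels (± SD, n = 2) were 50.4 ± 2.43 CPM for WT against 35.9 ± 10.4 CPM for KO, and the log2 fold change of -0.52 ± 0.18 (SE, sex term; 95% interval -0.90 to -0.14) did not pass (edgeR adjusted p = 0.121, and 0.300 without the term). The female pair differed by -0.87 and the male pair by -0.17 (log2). Without KO replicate 1, the edgeR fit without a term gave -0.22, and without KO replicate 2 it gave -0.82. Whether the RNA composition of KO replicate 1 has a part in this value was not tested.

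The start regions of Bax, Bbc3 and Bak1 are shown because these members had the lowest p-values, Bax and Bbc3 on one side and Bak1 on the other. The sequences are RefSeq promoter windows of GRCm38.p6, 250 bases before to 50 bases after a start, 5′ to 3′ on the gene's strand, and capitals mark the motif matches named below. Bax is chr7:45466849-45467148 (minus strand), Bbc3 is the one of its 3 windows that holds an E-box also found in the Bax window, chr7:16310181-16310480 (plus strand), and Bak1 is chr17:27028578-27028877 (minus strand).
Bax: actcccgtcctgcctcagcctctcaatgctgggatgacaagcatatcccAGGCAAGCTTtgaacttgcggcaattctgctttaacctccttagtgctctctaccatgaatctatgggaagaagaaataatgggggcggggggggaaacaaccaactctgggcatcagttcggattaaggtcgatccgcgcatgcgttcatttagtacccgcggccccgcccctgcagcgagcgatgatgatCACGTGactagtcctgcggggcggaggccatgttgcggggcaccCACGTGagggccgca
Bbc3: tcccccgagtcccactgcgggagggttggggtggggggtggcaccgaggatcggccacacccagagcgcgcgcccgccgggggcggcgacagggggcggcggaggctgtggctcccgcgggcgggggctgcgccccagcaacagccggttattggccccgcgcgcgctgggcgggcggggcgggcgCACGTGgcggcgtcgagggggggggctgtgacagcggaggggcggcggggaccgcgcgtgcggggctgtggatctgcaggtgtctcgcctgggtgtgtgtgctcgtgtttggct
Bak1: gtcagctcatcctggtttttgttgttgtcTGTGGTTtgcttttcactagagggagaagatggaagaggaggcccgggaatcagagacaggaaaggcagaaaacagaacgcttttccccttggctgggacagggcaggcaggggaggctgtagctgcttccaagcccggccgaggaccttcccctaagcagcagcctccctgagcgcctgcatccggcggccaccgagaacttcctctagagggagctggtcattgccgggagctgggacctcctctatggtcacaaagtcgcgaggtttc

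Both strands of every window were searched for a p53 decamer, for Foxo (GTAAACA), Runx (TGTGGTT) and ATF4-CHOP (TGATGNAAT) motifs, and for the E-boxes CACGTG (Myc type) and CAGCTG (E-protein type). The Bax window held a p53 decamer 192 to 201 bases before the start and 2 CACGTG E-boxes, 4 to 9 bases before it and 35 to 40 bases after it. The Bbc3 window held 1 CACGTG E-box 59 to 64 bases before the start, and the Bak1 window a Runx motif 215 to 221 bases before it. Another Bbc3 window held a Foxo motif 161 to 167 bases before its start, and the remaining one held no match. A p53 decamer also occurred in 1 Bmf window, 204 to 213 bases before the start. Among 32841 RefSeq windows of the same length, 8.36% held a p53 decamer, 7.15% a CACGTG E-box, 5.27% the Runx motif and 3.65% the Foxo motif. Among 12734 windows of tested genes the shares were 6.62%, 9.68%, 3.80% and 2.64%. Bcl2l11 had a Foxo motif and a CAGCTG E-box in 1 of its windows, and CAGCTG occurred in all 3 Bmf windows, against 16.3% of all windows and 15.2% of those of tested genes. Within a window no match overlapped another, and a match is a run of letters, not a measured site. Windows were found for 9 members (15 windows), with none for Pmaip1. Member windows were rich in G and C, with a median of 65.7% against 60.3% for windows of tested genes.

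Bmf (ENSMUSG00000040093, chr2:118528757-118549687), a BH3-only gene whose protein binds a dynein light chain, had 175 and 207 CPM in WT and 232 and 236 CPM in KO. In CPM both KO libraries were above WT and close to each other, while the WT libraries differed by more. In TPM the genotypes overlapped (125 and 149 in WT, 143 and 165 in KO). The log2 fold change was 0.30 ± 0.15 (SE, sex term; 95% interval -0.04 to 0.63) and did not pass (edgeR adjusted p = 0.289). Without the term it was 0.29. It became 0.18 with WT replicate 1 left out, 0.42 without WT replicate 2 and 0.28 without KO replicate 2. Bcl2l11 (chr2:128126038-128162547), the best-known BH3-only gene of thymocyte deletion, had 104 and 96.9 CPM in WT and 98.3 and 102 CPM in KO. Its genotypes overlapped, the KO libraries lying between the WT libraries. The 95% interval of its log2 fold change ran from -0.30 to 0.29 with the sex term (edgeR adjusted p = 0.990).

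The other BH3-only genes overlapped between genotypes. Bid (chr6:120891930-120916853), which caspase-8 cleaves to link death receptors to mitochondria, had 28.4 and 25.8 CPM in WT and 26.9 and 29.8 CPM in KO (log2 fold change 0.07, 95% interval -0.29 to 0.42, sex term). Bad (chr19:6941861-6951899), whose protein is held by 14-3-3 proteins when phosphorylated, had 18.3 and 24.0 CPM in WT and 18.6 and 21.1 CPM in KO (log2 fold change -0.08, 95% interval -0.45 to 0.30). Pmaip1 (chr18:66458533-66465565), which binds Mcl1 protein, had 54 and 102 counts in WT and 65 and 61 in KO. At these counts its interval was the widest of the members, from -0.73 to 0.69 around a log2 fold change of -0.02. Exon bases of Bid are shared with its family neighbour Bcl2l13 (17.7% of 3550) and those of Bad with Gpr137 (20.5% of 2558), and fragments on them were not counted. Gpr137 itself fell with the sex term (log2 fold change -0.96, edgeR adjusted p = 0.0450), and Bcl2l13 did not pass (0.31, edgeR adjusted p = 0.239).

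Neither survival gene passed. Bcl2 (ENSMUSG00000057329, chr1:106538178-106714274) had 17.01 and 17.04 CPM in WT and 22.7 and 17.6 CPM in KO. Both KO libraries were above WT, KO replicate 2 by little, and the pairs differed by 0.42 (female) and 0.05 (male) on the log2 scale. Its log2 fold change was 0.23 ± 0.18 (SE, sex term; 95% interval -0.16 to 0.63; edgeR adjusted p = 0.496). Without the term it was 0.25, which became 0.06 with KO replicate 1 left out and 0.41 with KO replicate 2 left out. Markers of the double-negative stage, where Bcl2 is also expressed, summed to 105.5 and 96.4 CPM in WT and 134 and 107 CPM in KO, and markers of mature single-positive cells to 1932 and 1759 CPM in WT and 2191 and 1795 CPM in KO. Ccr9, which DP cells express too, made up 1084 to 1434 CPM of the latter sum, whereas Ccr7 reached 7.63 CPM and Klf2 4.47 CPM at most, and Il7r had 7 to 23 counts. In sorted bulk RNA a change in the share of such cells and a change in RNA per cell cannot be told apart, and the part of these markers in the Bcl2 level was not tested. Mcl1 had 654 and 633 CPM in WT and 701 and 613 CPM in KO. Its genotypes overlapped in CPM (log2 fold change 0.03, 95% interval -0.38 to 0.44, sex term), whereas on the TPM scale both KO libraries, at 664 and 658, were below both WT libraries.

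**Figure D3:**
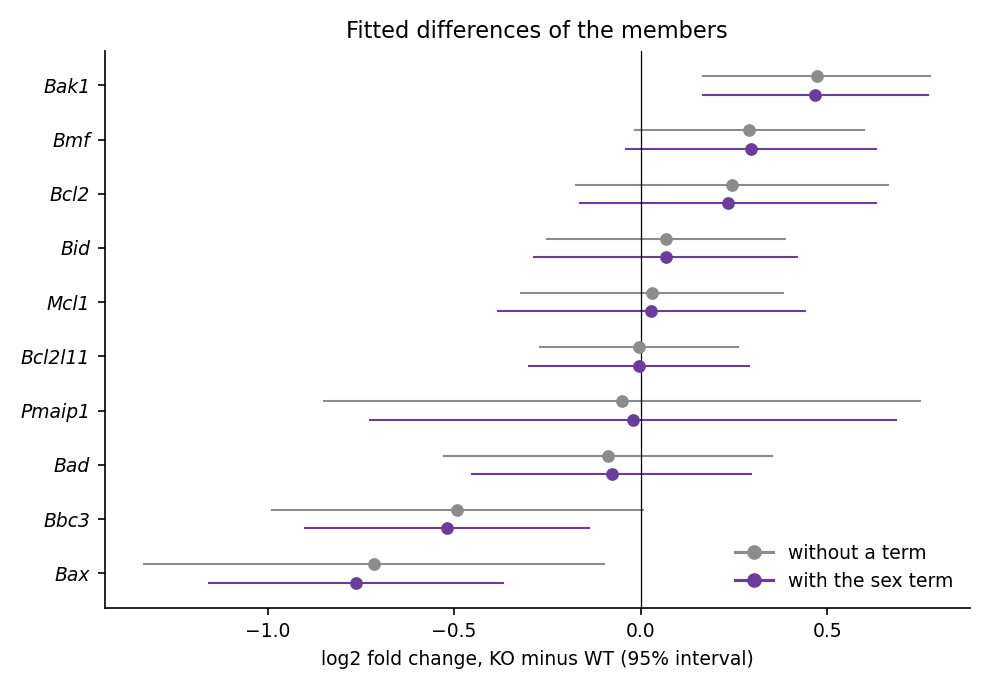
Fitted log2 fold change, KO minus WT, of each member with its 95% interval, grey for the fit without a further term and purple with the sex term. The Bax interval lies below 0 and the Bak1 interval above 0 in both fits, the Bbc3 interval lies below 0 with the sex term and reaches 0.0062 without it, and the intervals of the other 7 members include 0.

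A few ratios between members were computed per length. The ratio of Bax to Bcl2 was 16.6 and 17.2 in the WT libraries and 5.63 and 12.6 in the KO libraries. Bcl2l11 to Mcl1 was 0.0676 and 0.0651 in WT and 0.0597 and 0.0706 in KO. The 6 BH3-only genes summed to 0.450 and 0.494 of Bcl2 plus Mcl1 in WT and to 0.413 and 0.527 in KO. Bax plus Bak1 came to 0.280 and 0.299 of Bcl2 plus Mcl1 in WT and to 0.237 and 0.301 in KO. Bcl2l1, a further survival gene of the family, is not described here and did not enter these sums. The ratio of Bax to Bcl2 was lower in both KO libraries, and for the other 3 ratios the KO libraries enclosed the WT libraries. With 2 libraries per genotype these ratios were not tested.

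The size of the differences depended on the pair. For 7 of 10 members the difference between KO and WT was larger in the female pair, as it was for 73.3% of all genes tested. The 3 members higher in KO in both pairs were Bak1, Bmf and Bcl2 (35.5% of all genes were), and the 2 lower in both were Bax and Bbc3 (36.7% of all genes). The other 5, Mcl1, Bid, Bad, Bcl2l11 and Pmaip1, had opposite signs in the pairs (27.8% of all genes). Each pair holds 1 KO and 1 WT library, so the difference between the sexes was not tested.

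**Figure D4:**
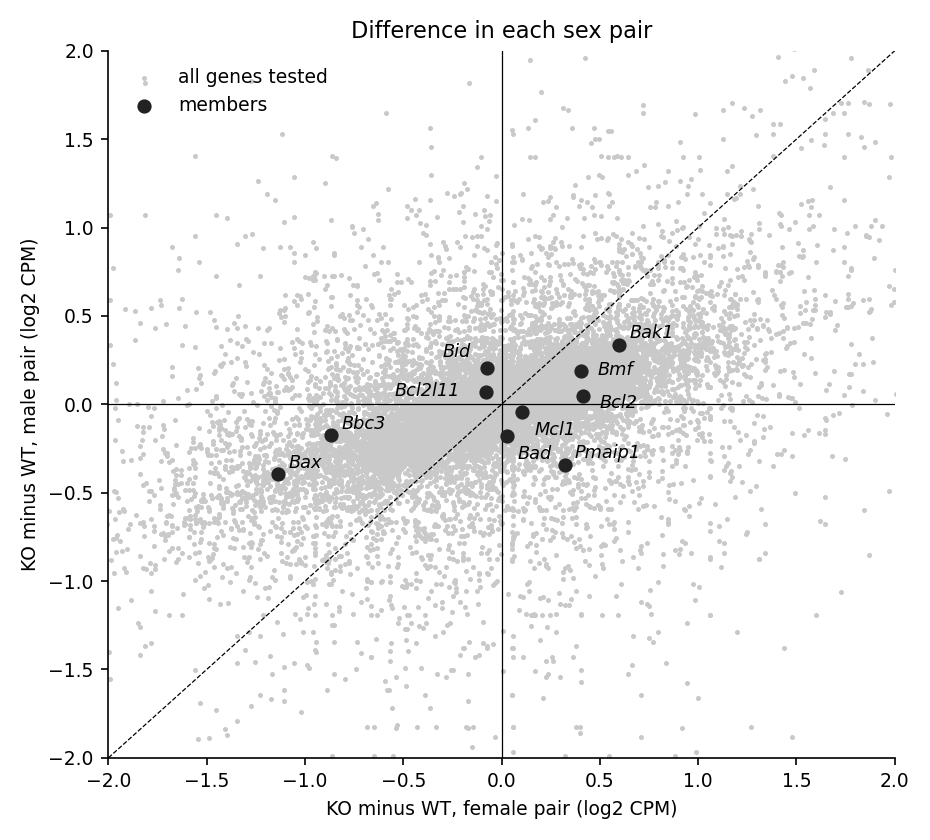
Log2 difference, KO minus WT, in the female pair (horizontal) and the male pair (vertical) for the members (black, named) over all genes tested (grey; 366 genes beyond 2 in either pair are not drawn); the dashed line marks equal differences. Bax lies at -1.14 and -0.40 and Bak1 at 0.60 and 0.34, and Pmaip1 at 0.32 and -0.34.

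For the genes that act with the members, calls are set against the 3.21% of all genes called with the sex term. Of 9 other family genes tested, edgeR called 0 (3 had an unadjusted p under 0.05 with the sex term, against 21.4% of all genes): Bnip3l, a mitophagy receptor, had 127 and 133 CPM in WT and 208 and 156 CPM in KO (log2 fold change 0.47, edgeR adjusted p = 0.122, sex term), and Becn1, an autophagy protein with a BH3 domain, had 128 CPM in each WT library and 91.9 and 109 CPM in KO (-0.36, adjusted p = 0.171). Bok, Bcl2l10 and Hrk were among 6 with too few counts to test, and Hrk was at 0 in every library. Among 24 genes of the apoptosome, the caspases and mitochondrial release, 1 fell and 0 rose with the sex term (6 had an unadjusted p under 0.05). It was Htra2, a mitochondrial protease that relieves inhibition of caspases, at 20.7 and 25.6 CPM in WT and 8.60 and 15.96 CPM in KO (log2 fold change -0.96 ± 0.20, SE; edgeR adjusted p = 0.0336). Birc6, a large inhibitor-of-apoptosis protein, had 689 and 591 CPM in WT and 1228 and 725 CPM in KO and did not pass (0.56, edgeR adjusted p = 0.155). That list's median was -0.07, against -0.01 over all genes.

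Neither the 11 tested death receptor genes nor the 25 tested genes for protein partners of the members held a call by edgeR (list medians 0.05 and -0.04; 2 and 6 genes had an unadjusted p under 0.05 with the sex term). Cflar, which blocks caspase-8, was at 210 and 211 CPM in WT and 289 and 217 CPM in KO, and Tnfrsf1a, a TNF receptor, overlapped (123 and 128 against 139 and 122 CPM). Huwe1, a ubiquitin ligase for Mcl1 protein, had 697 and 603 CPM in WT and 997 and 653 CPM in KO. Hspa8, a chaperone, had 1218 and 823 CPM in WT and 1063 and 758 CPM in KO, the replicates differing more than the genotypes. Of 21 tested genes listed as regulators of the members, mostly transcription factors, 1 rose and 1 fell with the sex term (median -0.07). In edgeR 8 had an unadjusted p under 0.05 with the term, against 21.4% of all genes. The list also held Zfp36l1 and Zfp36l2, which encode RNA-binding proteins. Foxo1, whose family acts on Bcl2l11 and Bbc3, rose from 52.2 and 47.6 to 107.5 and 61.2 CPM (log2 fold change 0.70 ± 0.17, SE; edgeR adjusted p = 0.0442). Atf4, the stress-response factor that acts with Ddit3 on Bbc3, fell from 144.5 and 132.5 to 47.6 and 97.3 CPM (-1.02 ± 0.22, SE; edgeR adjusted p = 0.0342). In each of these called genes the KO library farther from WT was KO replicate 1, and none of them passed without the term (edgeR adjusted p = 0.267 for each).

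The genes nearest to 3 chosen members in their pattern over the 4 libraries were taken from 6978 protein-coding genes with a mean of at least 20 CPM, by the root mean square distance of centred log2 CPM. For Bax they were Iffo1 (0.01), Cenpt (0.03) and Hnrnph1 (0.03), and 115 genes lay within 0.1. Iffo1 had 91.0 and 94.9 CPM in WT and 40.6 and 70.9 CPM in KO, the same order as Bax. For Bcl2 they were Cdon, Usp4 and Serp1, with 1390 genes within 0.1, and for Bcl2l11 Mrps15, Snrpd2 and Eva1b, with 1940. With 4 libraries such closeness is common and describes these libraries alone.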

How the data were processed

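Per the file headers, the authors counted paired fragments over genes with featureCounts 1.6.3, and these raw counts were deposited; they cover exons of the Ensembl 98 annotation on GRCm38, without strand and with multi-mapped and multi-gene fragments left out. The submitters' processing notes name HISAT2, DESeq2, FastQC, Trim Galore 0.5.0 and, unlike the header, featureCounts 1.6.4. The deposited exon length entered TPM only. Symbols came from GENCODE M21 (55240 of 56239 IDs, 98.2%) and promoters from RefSeq.

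Counts were filtered with filterByExpr (15070 genes), TMM-scaled (factors 0.919 to 1.04) and tested with edgeR 4.0.16 in R 4.3.3 on 2 residual degrees of freedom, or 1 with the sex term. Intervals are fitted log2 fold changes with the moderated degrees of freedom; SE is the log2 fold change over the root of F. Pair differences use log2 CPM with a prior count of 2. A count of 0 allows 3 counts, 0.106 to 0.139 CPM; depth bounds counting error only. WT replicates and KO replicates were distinct libraries (chi-square per degree of freedom 12.4 and 55.6). P-values measure spread between these libraries, with each gene's estimate of spread moderated by those of the other genes. With the sex term a gene has 1 residual degree of freedom of its own, so the Bax call draws on that moderation. The scripts were tested on simulated data. DESeq2 1.42.0, limma-voom 3.58.1, other scalings, no filter and left-out libraries were alternatives.

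Named were all members, Chaf1b, called genes of each pathway list or else its most abundant up to 2, the most abundant marker of a list where relevant, and the 3 nearest patterns. Genes sharing exon bases with members, low markers and called markers were named after their values were seen. Members and lists were chosen with earlier results of these data known.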

Additional observations from a re-analysis of the deposited data

Results flagged for a closer look

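Some genes differed in sign between the female pair and the male pair, each of 1 KO and 1 WT library, so that no difference between the sexes was tested. On the log2 scale, female pair first, Pmaip1 differed by 0.32 and -0.34, Bid by -0.0758 and 0.21, Bad by 0.0263 and -0.18, Mcl1 by 0.10 and -0.05, and Bcl2l11 by -0.0788 and 0.07. Tnfrsf1a differed by 0.17 and -0.06. Of the genes chosen for a pattern like that of Bcl2l11, Mrps15 differed by -0.0691 and 0.08, Snrpd2 by -0.0695 and 0.06, and Eva1b by -0.0566 and 0.05. Opposite signs occurred in 27.8% of all genes tested. The Pmaip1 values rest on 54 to 102 counts per library.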

How the results depend on the processing

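Without a term edgeR called 1 gene and 0 members; with the replicate block it called 483 genes and 1 member (Bax), with DESeq2 448 genes and 0 members, and without a filter 1465 genes and 3 members (Bax and Bbc3 lower, Bak1 higher). Leaving out 1 library gave 1 to 5148 genes and 0 to 5 members. With the sex term the 483 genes and 1 member became 1 and 0 with no replicate block. They became 145 and 0 with library-total scaling (17.9% of calls higher in KO in place of 31.5%), and 76 and 0 with robust dispersions. Without a filter they were 1521 of 26019 genes and 3 members, and the member call was 0 with DESeq2. Left-out libraries could not be tested with the term. The cause of these moves was not tested. The labels do not say that a replicate number marks a shared litter or day; same-numbered deviations correlated at 0.47 over genes and 0.42 over autosomal genes, and besides Bax the block changed no member's call. Bax, Bbc3, Bak1, Bmf and Bcl2 kept their direction in every alternative run.

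Signs near 0 turned, all uncalled. In the fit without a term Bcl2l11 became 0.00079 with RLE size factors, 0.0069 with upper-quartile scaling and 0.00085 with DESeq2, and library-total scaling gave Mcl1 -0.0549 and Bid -0.0105. With 1 library left out, Bcl2l11 ran from -0.0513 to 0.0470, Bad from -0.27 to 0.12, Pmaip1 from -0.34 to 0.32, Mcl1 from -0.0641 to 0.12 and Bid from -0.0112 to 0.14. With the replicate block Bcl2l11 became 0.0015 with RLE size factors or DESeq2 and 0.0079 with upper-quartile scaling, and library-total scaling gave Mcl1 -0.0550 and Bid -0.0164. In CPM in place of TPM, the ratio of Bax to Bcl2 was 2.90 in WT and 1.57 in KO, in place of 16.9 and 9.11, and BH3-only genes to Bcl2 plus Mcl1 0.595 and 0.625, in place of 0.472 and 0.470. Leaving out mitochondrial and ribosomal protein genes was chosen after seeing the data. Depth limits Pmaip1 most.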
